A study of Caenorhabditis elegans with 15 samples.

Results

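The transcriptome of wild-type Caenorhabditis elegans larvae was described from 5 RNA-seq libraries of the strain N2 at the second larval stage (L2), out of 15 libraries in all. These 5 libraries were chosen by their labels alone, and no measured value entered that choice. The other libraries came from L2 larvae of sma-3 mutants (5 libraries) and sma-6 mutants (5 libraries), genes of the pathway through which the ligand DBL-1 sets body size. The mutant alleles are not given in the sources used here, and the mutants served only to see how the same genes varied outside the wild type. Per the labels, all animals were grown at 20 °C on agar plates seeded with E. coli, no treatment is mentioned, and the stranded libraries were made from poly-A RNA of whole animals. The labels do not say whether the 5 wild-type libraries came from separate cultures, so the spread between them may be technical.

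An L2 larva lies between the first and the second molt. Its epidermis secretes a collagen-rich cuticle that is replaced at each molt, so transcripts of cuticle genes pass through waves within every larval stage. Its nervous system, intestine, pharynx and body-wall muscles are already functional, whereas its gonad is small and its germ cells divide without making sperm or oocytes. Yolk proteins, the vitellogenins, are made by the intestine of adult hermaphrodites. In RNA of whole animals, fewer cells of a type and less RNA per cell cannot be told apart.

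The wild-type libraries held 18882728, 48292350, 19814404, 16467702 and 16979787 counts in replicates 1 to 5 over 16259 listed genes, so that replicate 2 was the deepest and replicate 4 the shallowest. A transcript seen 3 times had a level of 0.0621 CPM (a gene's counts per 1000000 counts of the library) in the deepest library and 0.182 CPM in the shallowest, and these limits cover counting error only. All pairs of the 5 libraries differed by more than sampling noise, with chi-square values per degree of freedom of 5.09 to 40.04. Replicates 5 and 3 stood apart from the rest. The root mean square log2 difference to the other wild-type libraries averaged 0.303 for replicate 5 and 0.236 for replicate 3, and between 0.204 and 0.208 for the other libraries. The sums those libraries moved most are given with and without them.

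A mean of at least 1 CPM was reached by 12479 genes, which are called detected here. At least 10 CPM was reached by 8214 genes, at least 100 CPM by 1901 genes and at least 1000 CPM by 155 genes. Only 33 listed genes had no count in any wild-type library. Every listed gene reached at least 5 counts in some library of the series, so genes without counts were absent from the list. Shares of listed genes are therefore not shares of all genes of the genome. The 488 most abundant genes together held 50% of the counts and the 4408 most abundant held 90%. In single libraries 5.23% to 6.00% of the counts belonged to the first 10 genes and 23.98% to 26.2% to the first 100.

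Translation dominated the top of the ranking by mean CPM, which was led by eef-1A.1, the elongation factor that delivers aminoacyl-tRNA to the ribosome. Its level was 12236, 10574, 9828, 12454 and 9749 CPM in replicates 1 to 5, with a mean of 10968 ± 1300 CPM (SD, n = 5). Replicates 3 and 5 were the lowest. Next came eef-2, the elongation factor that moves the ribosome along the message (6902 ± 566 CPM), and rpl-3, a protein of the large ribosomal subunit (6790 ± 271 CPM; SD, n = 5 each). Of the 20 most abundant genes, 10 encoded cytosolic ribosomal proteins by their symbols, as did 53 of the 100 most abundant.

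Genes outside translation were also among the first 20. The body-wall muscle myosin heavy chain unc-54 averaged 5662 ± 579 CPM, and ahcy-1, the S-adenosylhomocysteine hydrolase of the methionine cycle, averaged 4942 ± 414 CPM. The mitochondrial ADP/ATP carrier ant-1.1 stood at 4439 ± 288 CPM, and atp-2, the beta subunit of ATP synthase, at 3124 ± 143 CPM. The constitutive Hsp70 chaperone hsp-1 averaged 3486 ± 301 CPM and the intestinal aspartyl protease asp-1 averaged 3232 ± 212 CPM (SD, n = 5 each). The remaining members of the first 20 were rla-0, rps-1, rpl-7, rpl-4, rack-1, rps-8, rps-7, eef-1A.2, rpl-6, rps-0 and rps-3, with means between 3065 and 4532 CPM.

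**Figure D1:**
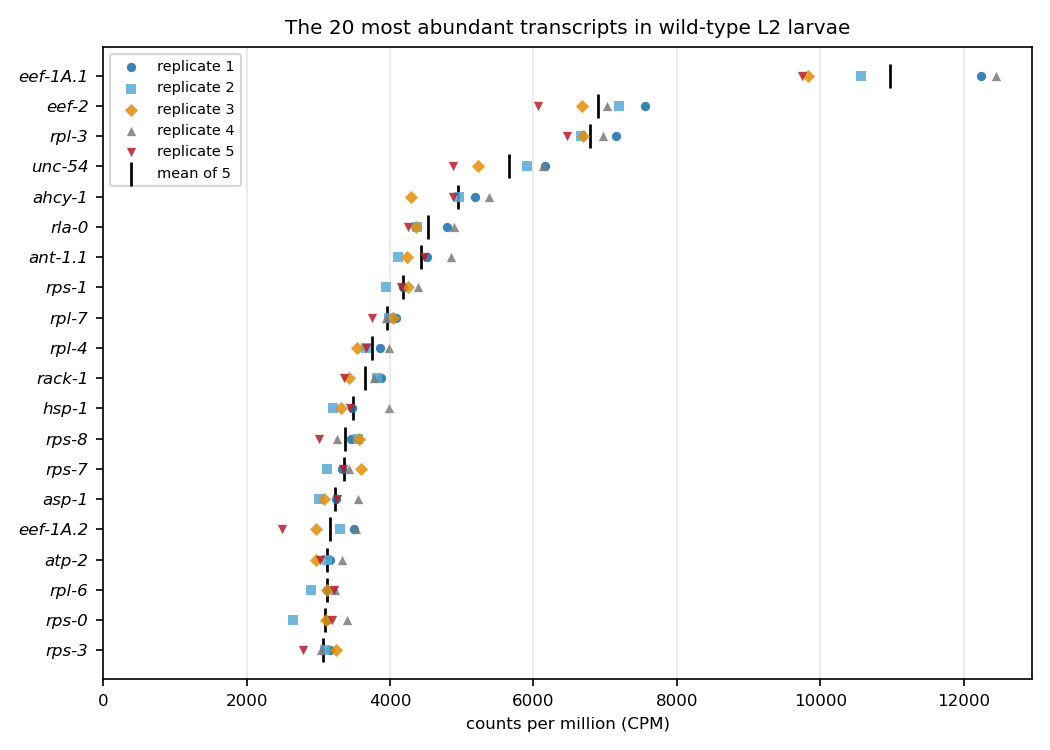
The 20 genes of highest mean level in wild-type L2 larvae, with CPM on the x axis, a point for each of the 5 libraries and a bar for their mean. Replicate 5 was the lowest library for eef-1A.1 (9749 CPM), eef-2 (6063 CPM), unc-54 (4881 CPM) and eef-1A.2 (2499 CPM), while rpl-7 stayed between 3743 and 4079 CPM.

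Counts favour long transcripts, so the order by CPM is an order of counts, and levels of different genes were also read per length, as TPM (a gene's share of transcripts, per 1000000, from counts and summed exon length). On that scale eef-1A.1 was still first at 8672 ± 1087 TPM. By their symbols 17 of the 20 leading genes encoded ribosomal proteins, led by rps-25 at 6887 ± 989 TPM. Only 8 genes belonged to the first 20 on both scales. The long unc-54 transcript stood at 1109 ± 118 TPM. The other 2 of the 20 leaders by TPM were Y37E3.8 and F41F3.3, which no symbol pattern placed in a family. Products of genes without a family symbol were not looked up, so a ribosomal gene among them would be missed by these counts.

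Among 30 gene families, the cytosolic ribosomal proteins took the largest share of the counts. Their summed level was 152237, 148231, 155914, 149180 and 137861 CPM in replicates 1 to 5, a mean of 14.9% ± 0.675 of all counts (SD, n = 5). The lowest sum was that of replicate 5 and the highest that of replicate 3. Of 80 listed members 79 were detected, and the detected members had a median of 3921 TPM, with quartiles of 2939 and 4783 TPM. The lowest of these 79 stood at 74.1 TPM. Replicate 5 was the lowest library for 55 of the 79 members, against 35.6% of all 8214 genes of at least 10 CPM, on TMM-normalized levels (CPM corrected for library composition).

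Translation elongation and initiation factors came second by counts, at 33067 ± 2686 CPM over 42 genes (SD, n = 5), all of them detected. Replicate 5 was again low, at 29384 CPM, with 31464 to 35749 CPM elsewhere. The paralogous elongation factor genes eef-1A.1 and eef-1A.2 differed per length, with 8672 ± 1087 TPM for eef-1A.1 and 2001 TPM for eef-1A.2. Their sequences are close, and how reads shared between such copies were counted is not known here.

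Cuticle collagens, which form the bulk of the exoskeleton, followed at 28937 ± 3134 CPM (2.89% of counts). Of 153 listed members, 88 reached 10 CPM. The leading member by CPM was col-17, at 1485, 1425, 1753, 1547 and 2637 CPM in replicates 1 to 5, and the second was sqt-3, at 1409, 1315, 1711, 1516 and 2505 CPM. In both genes replicate 5 was far above the others and replicate 3 was second. Per length, dpy-5 (2249 ± 582 TPM), dpy-13 (1992 ± 500 TPM), col-17 (1968 ± 580 TPM) and col-125 (1551 ± 107 TPM) led among the 10 collagens of highest CPM (SD, n = 5).

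Collagens did not move as a block between the libraries. Of the 88 members of at least 10 CPM, replicate 5 was the highest library for 33 and the lowest for 39 after TMM normalization. Over all genes these shares were 30.7% and 35.6%. By CPM it was the highest for 37 and the lowest for 37, against 3290 and 2141 of all 8214 genes. The 6 furrow collagens dpy-2, dpy-3, dpy-7, dpy-8, dpy-9 and dpy-10, which build the circumferential furrows of the cuticle, had similar levels per length, between 290.3 and 335 TPM. Their summed level was 1778, 1726, 1936, 1882 and 2274 CPM in replicates 1 to 5. By CPM all 6 were highest in replicate 5, against 3290 of all 8214 genes, and after TMM normalization 5 of 6 were, against 30.7%.

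The largest spread within that group was that of dpy-8, whose level was 345.8, 330.0, 371.4, 399.4 and 469.8 CPM in replicates 1 to 5. Of the other body-shape collagens, 9 reached 10 CPM, among them sqt-3, dpy-13, dpy-5 and the helically twisting rol-6 and sqt-1. All 9 were highest in replicate 5 on either scale, against 3290 of all 8214 genes by CPM and 30.7% after TMM normalization. Their list summed to 8613, 8170, 10919, 9308 and 15271 CPM in replicates 1 to 5, so that replicate 5 was 1.65-fold above the mean of the others. Without replicate 5 the mean of the list was 9253 CPM, against 10456 ± 2887 CPM with it. On the same list dpy-14 was not detected, at 0.79 CPM, and dpy-17 was low, at 4.57 CPM.

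Muscle proteins of the sarcomere summed to 28355 ± 1774 CPM, with all 27 listed members detected. The first by CPM was unc-54, at 6165, 5910, 5221, 6133 and 4881 CPM in replicates 1 to 5. Paramyosin, the thick-filament core protein encoded by unc-15, followed at 2778 ± 286 CPM. Replicates 3 and 5 were the lowest libraries for both genes. Per length, the myosin heavy chains were ordered as unc-54 (1109 ± 118 TPM), myo-3 (193 TPM), myo-2 (162 TPM) and myo-1 (142 TPM), of which unc-54 and myo-3 serve body-wall muscle and myo-2 and myo-1 the pharynx.

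Actin genes are near-identical, so their separate levels are uncertain. As listed, act-4 (1487 ± 182 TPM) and the intestinal act-5 (1310 ± 137 TPM) stood above act-1 (370 TPM), act-3 (369 TPM) and act-2 (311 TPM). The difference between act-4 and act-5 was smaller than the SD of act-4, and that between act-1 and act-3 was smaller than either SD. The same doubt applies to the regulatory light chains mlc-1 (1447 TPM) and mlc-2 (2345 TPM).

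Chaperones summed to 21855 ± 692 CPM, led by hsp-1 and by the Hsp90 gene daf-21 (2847 ± 145 CPM). The nuclear genes of the respiratory chain and ATP synthase summed to 18769 ± 558 CPM, led by atp-2 and by H28O16.1, the alpha subunit gene now named atp-1 (2798 ± 147 CPM). Cathepsin-like proteases summed to 15058 ± 928 CPM, led by asp-1 and asp-6 (2058 ± 165 CPM). The vacuolar ATPase, the proton pump of lysosomes and excretory cells, was the steadiest of the 12 leading families, at 9053, 9101, 9052, 9121 and 8968 CPM in replicates 1 to 5, led by vha-13 and vha-2.

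Basement membrane proteins summed to 7254 ± 161 CPM and showed how far length decides such an order, since they were 9th of the 30 families by CPM and 24th by TPM. Their leading members were the type IV collagen chains let-2 (485 ± 22.4 TPM) and emb-9 (320.5 ± 15.1 TPM). The short transcript of ost-1, the SPARC homolog that binds type IV collagen, was higher per length, at 1080 ± 87.04 TPM. The laminin subunits epi-1, lam-1 and lam-2 lay between 51.2 and 60.5 TPM.

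The proteasome summed to 5428, 5557, 5815, 5269 and 6392 CPM in replicates 1 to 5. Its leading members by CPM were the regulatory subunits rpn-1 (287 ± 22.8 CPM) and rpn-2 (275 ± 20.1 CPM). By CPM 29 of 31 members were highest in replicate 5, against 3290 of all 8214 genes. After TMM normalization 24 of 31 were, against 30.7% of all genes. Without replicate 5 the proteasome sum averaged 5517 CPM, against 5692 ± 439 CPM with it. Glycolytic enzymes summed to 5449 ± 171 CPM, led by enol-1 and aldo-2. Of the 4 glyceraldehyde-3-phosphate dehydrogenase genes, gpd-3 (701 TPM) and gpd-2 (623 TPM) stood far above gpd-1 (6.10 TPM) and gpd-4 (5.25 TPM), with the caveat that the copies are close in sequence. Tubulins summed to 4573 ± 278 CPM, led by the beta-tubulin tbb-2 and the alpha-tubulin tba-2.

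**Figure D2:**
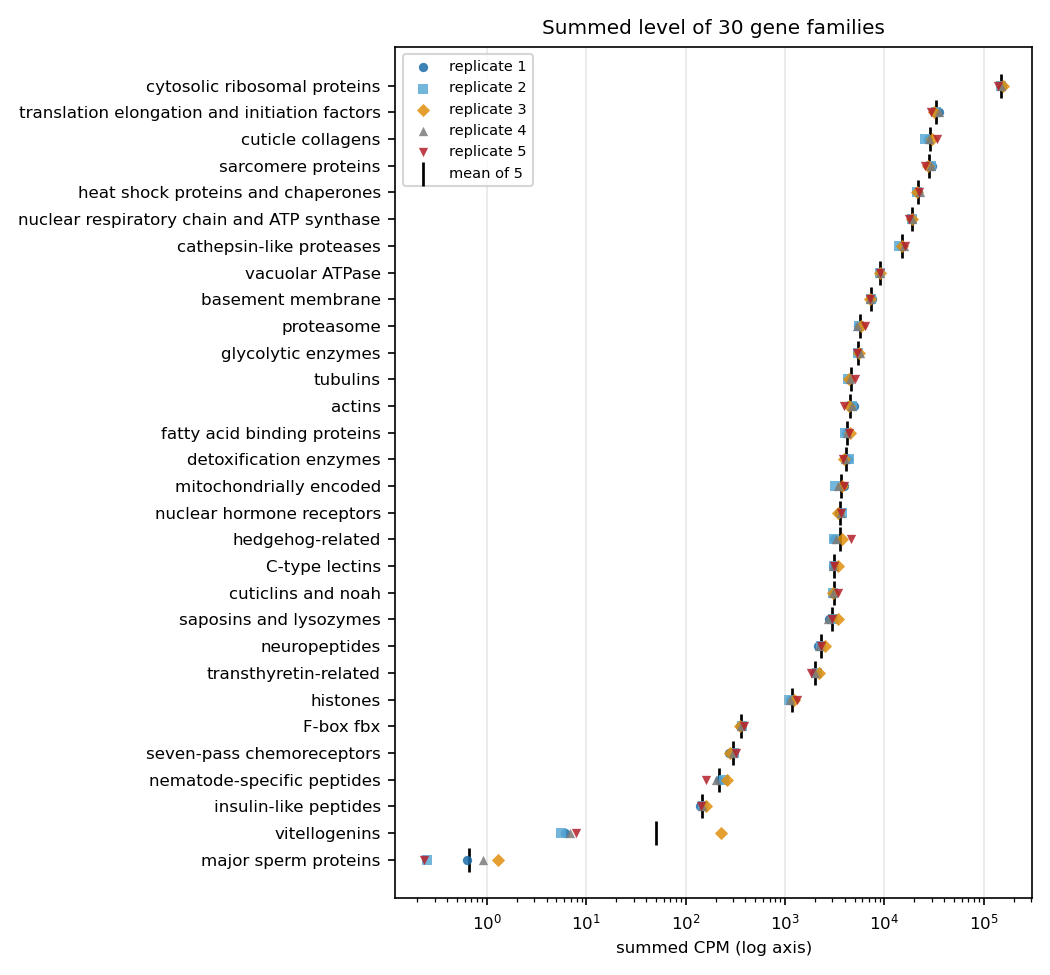
Summed CPM of 30 gene families on a log axis, with a point for each wild-type library and a bar for their mean, ordered from ribosomal proteins (148685 CPM) to major sperm proteins (0.669 CPM). The 5 points lie close together for most families; vitellogenins are set apart by replicate 3 at 226 CPM, with 5.57 to 7.83 CPM elsewhere.

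Families of signalling and sensory genes were large in members and small in counts. Of 251 listed nuclear hormone receptors 195 were detected, summing to 3586 ± 105 CPM, with nhr-114 the first at 315 ± 22.1 CPM. Of 520 listed seven-pass chemoreceptor genes only 25 were detected and 100 did not exceed 3 counts in any library. The family summed to 297 ± 21.1 CPM, of which srr-4 held 93.0 ± 5.62 CPM. Neuropeptide genes were detected in 97 of 103 cases and summed to 2302 ± 156 CPM, led by nlp-24 (230 ± 17.7 CPM). After TMM normalization replicate 3 was the highest library for 41 of the 60 neuropeptide genes of at least 10 CPM, against 17.4% of all genes. By CPM it was the highest for 36 of the 60, against 1122 of all 8214 genes. Leading members in this paragraph, like those of the histones, were picked after their values had been seen.

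Of 48 listed histone genes 22 were detected. Libraries were selected for poly-A tails, so a histone message without such a tail would be missed. The undetected histone genes therefore cannot be called unexpressed. The first by CPM were the linker histone his-24 (276 ± 28.8 TPM) and the H3.3 variant his-72 (334 ± 47.1 TPM).

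Marker genes of the main tissues were present at very different levels. All listed markers were detected for the epidermis (22 of 22), the seam (7 of 7), the intestine (23 of 23), body-wall muscle (26 of 26), the pharynx (15 of 15), all neurons (20 of 20), neuron classes (31 of 31) and the germline (17 of 17). Their summed levels were 11557 ± 1635 CPM for the epidermis, 8888 ± 310 CPM for the intestine and 23011 ± 1256 CPM for body-wall muscle. The pan-neuronal genes summed to 2158 ± 84.5 CPM and the germline genes to 726 ± 88.6 CPM (SD, n = 5 each). Lists differ in length and in gene size, so these sums do not order the tissues. In the lists that follow, leading and lowest members are those by mean CPM, which is not corrected for length.

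**Figure D3:**
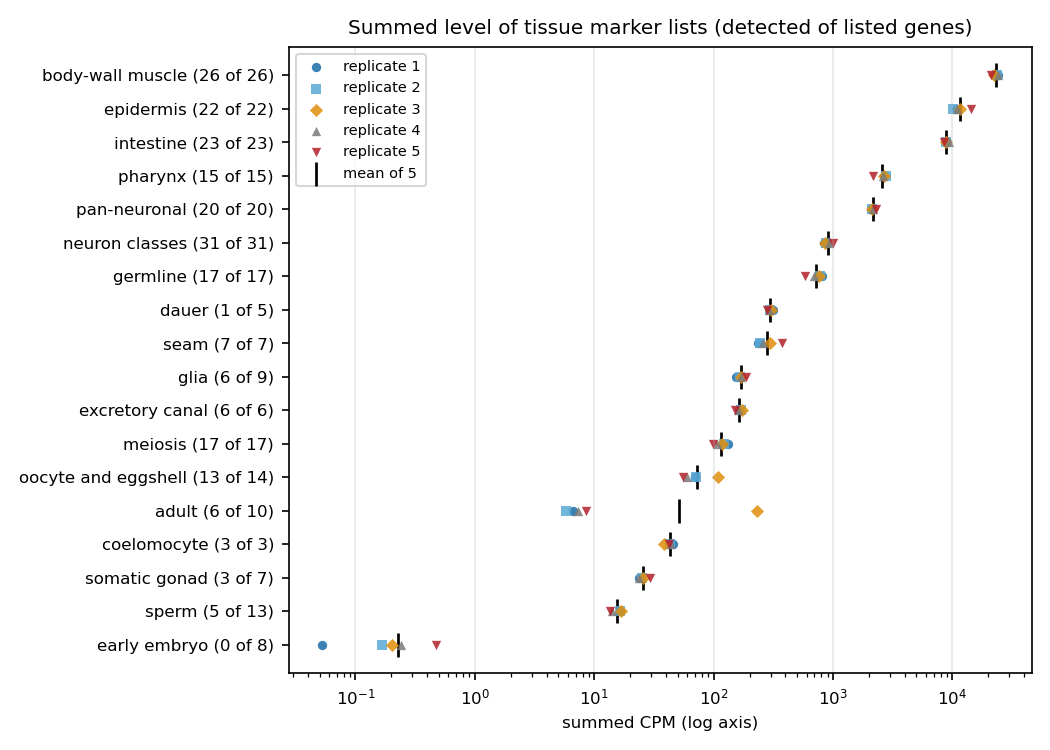
Summed CPM of 18 tissue and stage marker lists on a log axis, with a point for each wild-type library and a bar for their mean; the labels give detected and listed genes. Lists of larval tissues lie close together across libraries, the adult list holds replicate 3 at 229.5 CPM and the other libraries between 5.82 and 8.54 CPM, and the early embryo list lies below 1 CPM in every library. In the adult list vit-2, vit-3, vit-4 and vit-5 count as detected only through replicate 3, as does perm-4 in the oocyte and eggshell list.

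In the epidermis the collagens sqt-3, dpy-13 and dpy-5 led, and the lowest member was bli-5, a protease inhibitor needed for a smooth adult cuticle, at 5.18 ± 0.80 CPM. The spectraplakin vab-10, which links the epidermis to muscle attachments, averaged 1159 ± 67.4 CPM, and the apical matrix genes noah-1 and noah-2 averaged 898 ± 37.1 and 858 ± 60.1 CPM. Among epidermal transcription factors lin-26 stood at 85.02 CPM, nhr-23 at 64.1 CPM, nhr-25 at 54.5 CPM, elt-3 at 50.5 CPM and elt-1 at 30.7 CPM. The epidermal sum was 14311 CPM in replicate 5, with 10113 to 11634 CPM elsewhere, and without replicate 5 the mean was 10868 CPM. Its members went both ways. Of the 21 of at least 10 CPM, replicate 5 was the highest library for 9 and the lowest for 7 after TMM normalization. The shares of all genes were 30.7% and 35.6%. The seam cells, epidermal stem-like cells along the flanks, were marked by wrt-2 (165 ± 63.98 CPM), grd-10 (57.7 ± 10.3 CPM) and the GATA factor egl-18 (31.8 ± 1.44 CPM). Across replicates 1 to 5 wrt-2 stood at 120.7, 118.9, 174.9, 137.7 and 272 CPM, highest in replicate 5, whereas grd-10 was lowest there, at 39.9 CPM. The Runx factor rnt-1 was the lowest seam marker, at 2.94 CPM.

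In the intestine the leading markers were asp-1, the brush-border actin act-5 (1371 ± 155 CPM) and the intermediate filament gene ifb-2 (606 ± 24.8 CPM). The membrane linker erm-1 was steady, at 472, 482, 479, 489 and 483 CPM in replicates 1 to 5. The GATA factor elt-2, which specifies and maintains the intestine, averaged 42.4 ± 2.52 CPM and its relative elt-7 averaged 8.62 CPM. The metallothionein gene mtl-1 was the lowest, at 1.01 CPM, while mtl-2 stood at 46.99 ± 9.09 CPM. In body-wall muscle unc-54, unc-15 and the tropomyosin lev-11 (2104 ± 107 CPM) led. The lowest marker was unc-29, a subunit of the acetylcholine receptor of muscle, at 8.88 CPM, and the myogenic factor hlh-1 stood at 14.9 ± 1.23 CPM.

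Pharyngeal muscle was represented by the myosins myo-2 and myo-1 and by the troponin T gene tnt-4. The level of myo-2 was 927.5, 928.5, 837, 884 and 649 CPM in replicates 1 to 5, and that of myo-1 was 819.8, 835, 761, 776 and 592 CPM. Replicate 5 lay below every other library in both. Other markers differed in direction. Of the 12 of at least 10 CPM, replicate 5 was the lowest library for 7 and the highest for 4 after TMM normalization. It was the lowest for 35.6% and the highest for 30.7% of all genes. The list summed to 2571 ± 242 CPM with replicate 5 and averaged 2676 CPM without it. The pharyngeal organ-identity factor pha-4 averaged 46.4 ± 3.07 CPM, and the gland-cell factor hlh-6 was the lowest marker, at 1.99 CPM, and highest in replicate 5, at 3.42 CPM.

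Among pan-neuronal genes the neuropeptide-processing enzymes egl-3 (377 ± 16.40 CPM) and egl-21 (305 ± 20.1 CPM) and the dense-core vesicle protein ida-1 (195 ± 13.2 CPM) led. Synaptic genes included unc-13 at 135 ± 12.7 CPM, snb-1 at 126 ± 10.6 CPM and rab-3 at 73.4 ± 2.21 CPM. The lowest was ric-19, at 11.5 ± 0.66 CPM. Markers of neuron classes were led by genes of the touch receptor neurons: mec-12 at 209 ± 27.1 CPM, mec-7 at 182 ± 21.98 CPM and mec-17 at 98.4 ± 10.97 CPM. The first and the second of these encode an alpha- and a beta-tubulin and the last encodes a tubulin acetyltransferase.

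Transmitter markers covered GABA (unc-25, 124 ± 15.2 CPM), acetylcholine (unc-17, 27.2 CPM), glutamate (eat-4, 19.4 CPM), dopamine (dat-1, 11.6 CPM) and serotonin (tph-1, 3.82 CPM). The lowest detected class marker was the ciliary dynein gene xbx-1, at 1.14 CPM. Glial markers were detected in 6 of 9 cases, led by vap-1 (47.04 ± 6.00 CPM), fig-1 (42.8 ± 1.75 CPM) and ptr-10 (33.1 ± 4.62 CPM), with mls-2 the lowest detected at 1.68 CPM. The first and the second are secreted or surface proteins of the sheath glia of the main sense organ.

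All 6 excretory canal markers were detected, led by the aquaporin aqp-8 (61.7 ± 11.8 CPM), the chloride channel gene exc-4 (36.7 ± 2.65 CPM) and exc-9 (22.4 ± 2.16 CPM), with sulp-4 the lowest at 9.78 CPM. The 3 markers of coelomocytes, the scavenger cells of the body cavity, stood at 17.7 ± 1.27 CPM for lgc-26, 14.1 ± 1.31 CPM for unc-122 and 10.96 ± 1.04 CPM for cup-4. Of 7 markers of the somatic gonad 5 were among the genes listed and 3 were detected. The LIM-homeobox gene lim-7 averaged 15.7 ± 1.11 CPM and the innexin gene inx-9 averaged 2.34 ± 1.07 CPM. The Notch ligand gene lag-2, expressed in the distal tip cell that holds the germline stem cell niche, stood at 4.61, 5.47, 5.60, 4.49 and 10.2 CPM in replicates 1 to 5. Replicate 5 alone was high for lag-2, and it was the lowest library for inx-9, at 0.589 CPM.

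All 17 germline genes were detected. The cytoplasmic poly-A polymerase gld-2, also used in other tissues, averaged 129 ± 7.68 CPM, and the translational regulator nos-3 averaged 90.8 ± 10.4 CPM. The germ-granule helicase gene glh-1 stood at 127, 125, 132, 109 and 80.8 CPM in replicates 1 to 5, and the germ-granule gene pgl-1 at 91.8, 91.2, 85.8, 69.3 and 55.5 CPM. Both were lowest in replicate 5, which was the lowest library after TMM normalization for all 14 germline genes of at least 10 CPM, against 35.6% of all genes. The summed level in replicate 5 was 584 CPM, with 698 to 806 CPM elsewhere, and the mean without replicate 5 was 761 CPM. The germline's Notch receptor gene glp-1, which keeps germ cells dividing, averaged 19.3 ± 2.39 CPM, and the RNA-binding repressor fbf-1 was the lowest member at 6.24 CPM.

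Meiotic genes were all detected, 17 of 17, but 15 of them lay below 10 CPM. The exceptions were him-17, a chromatin-associated meiotic factor (45.8 ± 5.34 CPM), and the mismatch-repair relative msh-5 (11.1 ± 0.34 CPM). The meiotic cohesin gene rec-8 followed at 8.89 ± 1.42 CPM, and spo-11, which makes the double-strand breaks of meiosis, was the lowest at 1.304 CPM. Of 14 oocyte and eggshell genes 13 were detected, led by the katanin subunit mei-1 (20.2 ± 1.37 CPM), the chitin-binding eggshell protein cbd-1 (13.9 ± 3.82 CPM) and the RNA-binding protein spn-4 (11.1 ± 1.44 CPM), with egg-2 the lowest detected at 1.47 CPM. Among the detected genes perm-4 reached a mean of 1 CPM only through replicate 3. The list summed to 69.3, 71.0, 108.5, 60.2 and 55.8 CPM in replicates 1 to 5, so that replicate 3 was the highest. Without replicate 3 the mean was 64.1 CPM.

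Sperm genes were low. Of 13 markers 9 were among the genes listed and 5 were detected, led by the regulators of sperm fate fog-1 (7.67 ± 0.72 CPM) and fog-3 (2.49 ± 1.205 CPM), followed by the ferlin gene fer-1 (1.58 ± 0.46 CPM), with spe-6 the lowest detected at 1.04 CPM. None of 14 listed major sperm protein genes was detected, and their summed level lay between 0.236 and 1.31 CPM, or 4 to 26 counts per library. Of the early embryonic genes 3 of 8 were among the genes listed, namely end-1, med-2 and sdz-38, with 1 to 8 counts in all per library. For the dauer state, the arrested stage entered under starvation or crowding, 1 of 5 markers was detected. That was lea-1, a late-embryogenesis-abundant protein gene, at 298 ± 12.63 CPM, while the dauer cuticlin gene cut-1 stood at 0.27 CPM and hsp-12.6 at 0.08 CPM.

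Adult transcripts were concentrated in replicate 3. The yolk gene vit-2 (WBcel235 chromosome X, 5101042 to 5106169, plus strand, protein-coding) was measured at 0.106, 0.104, 68.9, 0.850 and 0.530 CPM in replicates 1 to 5, from 2, 5, 1366, 14 and 9 counts. The level of vit-6 (chromosome IV, 8261157 to 8266459, plus strand, protein-coding) was 1.11, 0.456, 77.4, 1.76 and 0.883 CPM. Replicate 3 alone was high in both genes.

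All 6 vitellogenin genes were highest in replicate 3, with vit-5 at 41.8 CPM there and at no more than 0.118 CPM in the other libraries. The copies vit-3, vit-4 and vit-5 are close in sequence and their separate levels are uncertain. The adult cuticle collagen col-19 also peaked there, at 1.72 CPM, against 0.0207 to 0.212 CPM elsewhere. So did the eggshell genes perm-4 (7.37 CPM, with 0 to 0.106 CPM elsewhere) and perm-2 (4.89 CPM, with no count elsewhere). In the same library the major sperm proteins and early embryonic genes were at 1.31 and 0.202 CPM in sum.

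The vitellogenin sum of 226 CPM in replicate 3 compared with 5.57 to 7.83 CPM in the rest of the wild type, 8.28 to 15.9 CPM in sma-3 mutants and 4.02 to 20.6 CPM in sma-6 mutants. The mean of the wild type was 50.5 ± 98.3 CPM (SD, n = 5) with replicate 3 and 6.57 CPM without it. Whether older animals contributed RNA to that library was not tested.

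Genes of processes that change with growth were also read. All 18 molting-cycle genes were detected, led by mlt-11, a Kunitz-domain protease inhibitor (1105 ± 87.02 CPM), noah-1 and noah-2. Within that list the libraries differed in opposite directions. The molting gene mlt-10 stood at 187.5, 208, 303, 238 and 459 CPM in replicates 1 to 5, and the hedgehog-related gene qua-1 at 347, 357.5, 478.5, 375 and 706 CPM. Both were highest in replicate 5 and second in replicate 3. The fibrillin-related matrix gene fbn-1 went the other way, at 462.5, 452, 338, 463 and 221 CPM, lowest in replicate 5 and second lowest in replicate 3. The molting regulator nhr-23 had the same order at the low end, at 65.1, 75.1, 53.3, 74.6 and 52.4 CPM.

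All 18 genes of DNA replication and the cell cycle were detected, with the ribonucleotide reductase subunits rnr-1 (153 ± 17.8 CPM) and rnr-2 (141 ± 20.9 CPM) and the sliding clamp pcn-1 (87.1 ± 7.71 CPM) in the lead. Highest in replicate 5 were 12 of the 17 that reached 10 CPM, after TMM normalization, against 30.7% of all genes. The lowest was the uracil-DNA glycosylase ung-1, at 7.94 CPM.

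Of the heat and proteotoxic stress markers 6 of 10 were among the genes listed. The endoplasmic reticulum chaperone hsp-4 averaged 271 ± 31.04 CPM and was highest in replicate 5 at 325 CPM. The heat-inducible hsp-16.2 averaged 1.73 ± 1.64 CPM, F44E5.5 stood at 1.78 CPM and F44E5.4 at 1.11 CPM. All 11 oxidative and metal stress genes were detected, led by the superoxide dismutase sod-1 (234 ± 11.03 CPM), the glutathione synthesis enzyme gcs-1 (142 ± 15.1 CPM) and the catalase ctl-2 (140.1 ± 6.41 CPM). The lowest of that list was mtl-1.

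Of 13 genes that respond to fasting 9 were detected. The acyl-CoA dehydrogenase acdh-1 led at 2643, 3011, 2741, 2573 and 3097 CPM in replicates 1 to 5, followed by the glyoxylate-cycle enzyme icl-1 (557 ± 93.7 CPM) and the lysosomal lipase lipl-5. The level of lipl-5 was 87.8, 102.6, 122.4, 86.5 and 48.9 CPM, lowest in replicate 5. The acyl-CoA synthetase acs-2 was highest in replicate 4, at 36.1 CPM, with 18.02 to 25.5 CPM elsewhere. The desaturase fat-7 ranged from 44.99 to 82.4 CPM, and lipl-2 was the lowest detected member at 1.505 CPM.

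Of 18 immune response genes 16 were detected, led by the lysozyme lys-1 (316 ± 31.1 CPM), F08G5.6, now named irg-4 (165 ± 29.3 CPM), and lys-7. The lysozyme lys-7 stood at 85.3, 84.1, 162, 102 and 169 CPM in replicates 1 to 5, highest in replicates 5 and 3. The antimicrobial peptide gene cnc-4 ranged from 16.7 CPM in replicate 5 to 37.04 CPM in replicate 3. F35E12.5, now named irg-5, ranged from 21.1 to 40.2 CPM, and cnc-2 was the lowest detected member at 1.16 CPM.

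Variation between the 5 libraries was measured for the 8214 genes of at least 10 CPM, as the SD of log2 TMM-normalized CPM. The median SD was 0.114, and the median SD that counting alone would give was 0.0500. An SD of at least 1 was reached by 3 genes and an SD of at least 0.5 by 64 genes, or 0.779%. The 25th and 26th genes of the ranking had SDs of 0.568 and 0.567, and the 100th and 101st had SDs of 0.473 and 0.472.

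**Figure D4:**
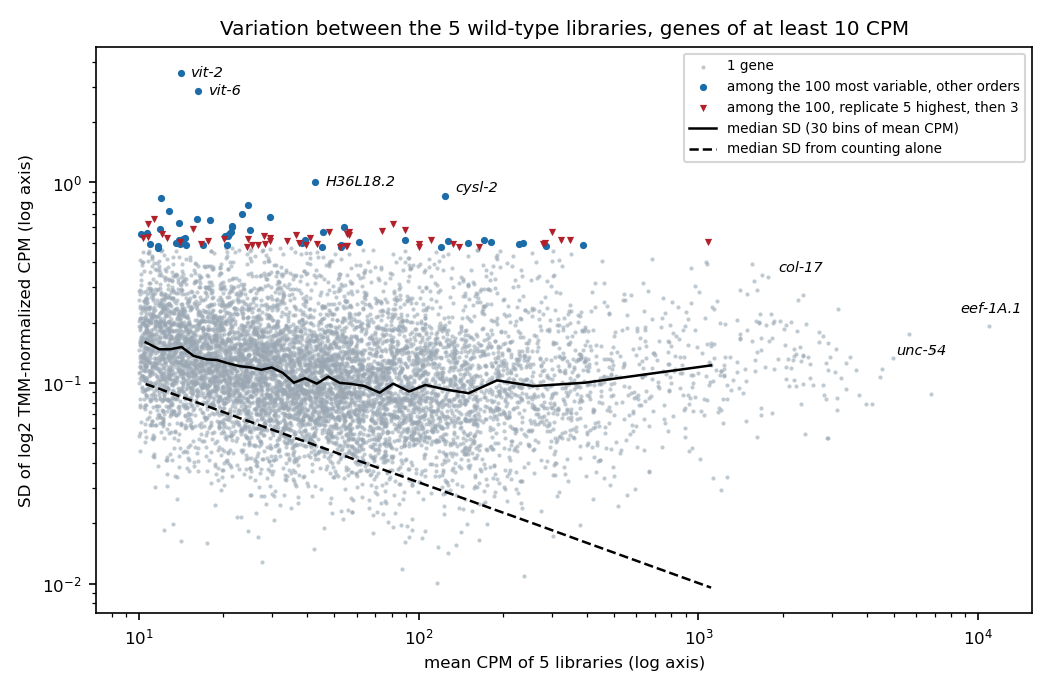
SD of log2 TMM-normalized CPM over the 5 wild-type libraries against mean CPM, both on log axes, with a point per gene of at least 10 CPM, the median SD as a solid line and the median SD from counting alone as a dashed line. The median SD over all genes is 0.114; vit-2 (3.52), vit-6 (2.87) and H36L18.2 (1.01) lie highest, and the red triangles are the 47 of the 100 most variable genes with replicate 5 highest and replicate 3 second.

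The first 2 genes of the ranking were vit-2 (SD 3.52) and vit-6 (SD 2.87), described above. Both reached a mean of 10 CPM only through replicate 3, with no more than 1.76 CPM in any other library. The vitellogenins vit-5 and vit-3 had SDs of 3.695 and 2.89, but their means lay below 10 CPM and they were not ranked. The third was H36L18.2 (chromosome X), the long non-coding RNA now named lep-5, which in males times the reshaping of the tail tip. Its level was 50.2, 48.1, 63.5, 40.3 and 11.3 CPM in replicates 1 to 5 (SD 1.01), so that replicate 5 was far below the others. Its values were 4.26 to 5.69 CPM in sma-3 mutants and 53.6 to 195 CPM in sma-6 mutants. The fourth was cysl-2 (chromosome II), a cyanoalanine synthase that detoxifies hydrogen cyanide, at 139, 145, 138, 157 and 40.1 CPM (SD 0.857). It too was low only in replicate 5, and it ranged from 46.6 to 79.8 CPM in sma-3 mutants and from 102 to 163 CPM in sma-6 mutants.

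Other genes of the first 25 were low in replicate 5 alone. Y38E10A.14 stood at 9.54 CPM there, with 25.99 to 27.9 CPM elsewhere, and the glutathione S-transferase gst-24 stood at 11.96 CPM, against 26.8 to 29.02 CPM. The short-chain dehydrogenase dhs-23 was at 4.83 CPM in replicate 5 and at 7.41 CPM in replicate 4, with 13.1 to 18.96 CPM in the others. The collagen col-142 had its lowest levels in replicate 5 (26.7 CPM) and replicate 3 (45.3 CPM), with 63.2 to 70.4 CPM in the others, and the UDP-glucuronosyltransferase ugt-9 followed the same order. Replicate 3 was the low library for the nuclear receptor nhr-74, at 4.85 CPM, against 13.6 to 17.5 CPM.

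High values in replicate 5 marked another set. The warthog gene wrt-4, a member of the nematode hedgehog-related proteins, was measured at 49.8, 51.9, 84.7, 70.7 and 148 CPM in replicates 1 to 5 (SD 0.618). F09F9.2 stood at 55.9, 62.6, 101, 70.6 and 155 CPM, and C50D2.1 at 47.3, 52.4, 72.4, 63.1 and 135 CPM. In all of these replicate 5 was highest and replicate 3 second. R07B1.13, W08G11.1, F17B5.1 and F30A10.2 had that order as well. The lipase lips-6 (49.7 CPM in replicate 5, 11.8 to 26.9 CPM in the others) and the intestinal ferritin ftn-1 (26.9 CPM, against 8.76 to 12.5 CPM) were also highest in replicate 5.

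The remaining genes of the first 25 had other orders. The mitochondrially encoded MTCE.34 ranged from 13.7 CPM in replicate 2 to 44.9 CPM in replicate 5. The phosphoglycolate phosphatase genes F44E7.2 (now pgph-2) and C53A3.2 (now pgph-3) were highest in replicate 4, at 31.9 and 31.8 CPM, and for pgph-3 replicate 5 was close, at 31.04 CPM. F12E12.11 (now nta-1) was highest in replicate 3 at 34.1 CPM and lowest in replicate 5 at 13.2 CPM. F55H12.2 and F18E3.11 were highest in replicate 5 and second in replicate 4.

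**Figure D5:**
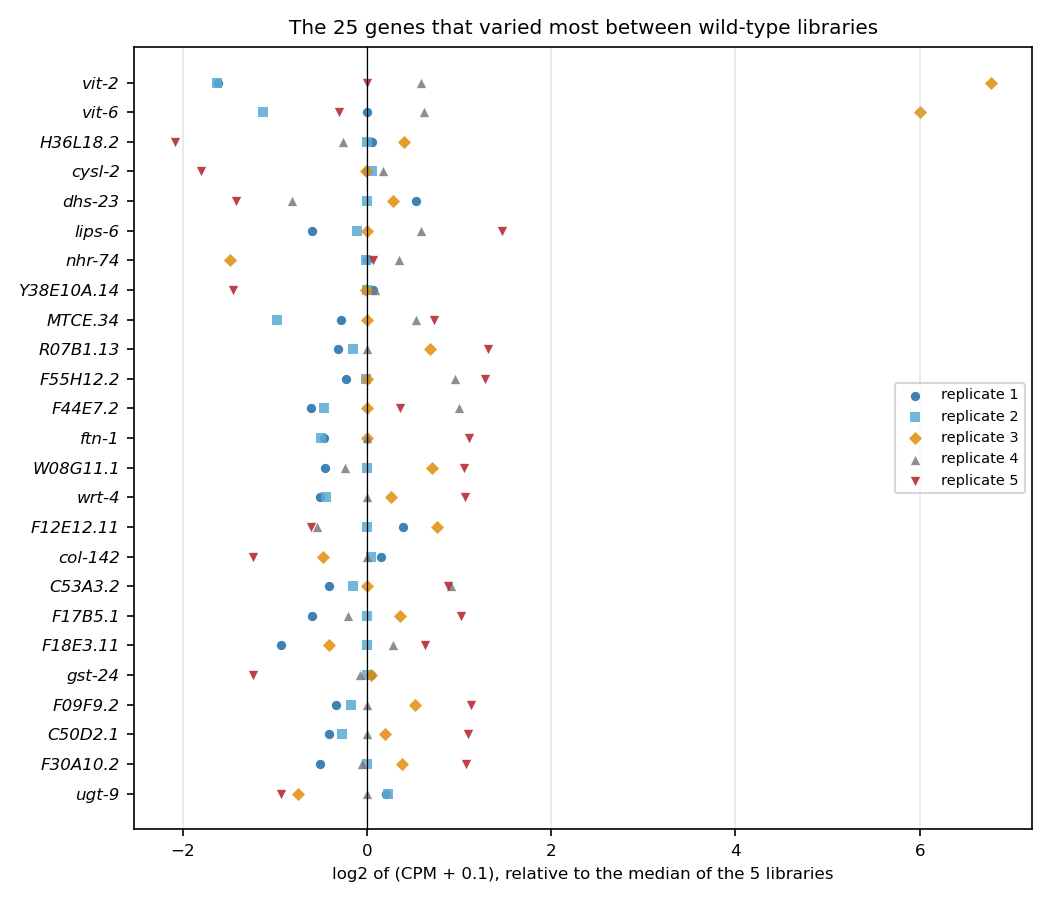
The 25 genes of largest SD between wild-type libraries, each library plotted as log2 of CPM + 0.1 relative to the median of the 5 libraries. Replicate 3 alone lies far to the right for vit-2 and vit-6, and replicate 5 lies far to the left for H36L18.2, cysl-2, Y38E10A.14 and gst-24 and to the right for lips-6, wrt-4 and C50D2.1.

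Replicate 5 was the library farthest from the median, after TMM normalization, for 80 of the 100 most variable genes, against 48.9% of all 8214 genes. For 47 of the 100, replicate 5 was highest and replicate 3 second, an order found in 11.4% of all genes. The ranking used these same values, so the shares describe the 100 genes and support nothing further. Of the 17 molting-cycle genes of at least 10 CPM, replicate 5 was the highest library for 11 and the lowest for 3 after TMM normalization. Over all genes the shares were 30.7% and 35.6%. Of these molting genes mlt-10 and qua-1 were highest there and fbn-1 was lowest. Of the furrow collagens 5 of 6 were highest there. The part of the molting cycle in these differences was not tested.

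The 47 genes included 7 of the 26 hedgehog-related genes of at least 10 CPM, namely wrt-2, wrt-4, wrt-6, wrt-8, grl-5, grl-7 and grl-15, whereas 1.22% of all genes were among the 100. They also included the collagens sqt-1, col-131, col-153 and col-172, the cuticlin-like gene cutl-8 and mlt-10, all picked here after their values had been seen. The ground-like gene grl-7 stood at 219, 223, 350, 279 and 536 CPM in replicates 1 to 5. The collagen sqt-1 stood at 759.5, 738, 1140.0, 986 and 1792 CPM. The hedgehog-related family as a whole summed to 3111, 3094, 3706, 3270 and 4557 CPM, with a mean of 3295 CPM without replicate 5, and its median SD over 26 genes was 0.352, against 0.114 for all genes.

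Of the 100 genes, 9 were cuticle collagens, out of 88 ranked (10.2%), whereas 1.22% of all genes were among the 100. Of these 9 collagens 4 had replicate 5 highest and replicate 3 second, a share near the 47 of all 100 genes. The other collagens were lowest in replicate 5: col-98 stood at 127 CPM there, against 250.1 to 273.5 CPM, and col-103 stood at 125 CPM, against 244 to 269 CPM. Detoxification enzymes gave 6 of the 100 out of 77 ranked, namely gst-20, gst-24, cyp-35A4, cyp-35C1, ugt-9 and ugt-13, and these 6 were lowest in replicate 5. Over all 77 replicate 5 was the lowest library for 31 and the highest for 18 after TMM normalization, against 35.6% and 30.7% of all genes.

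The count of variable genes rested on single libraries. Without replicate 5 the genes with an SD of at least 0.5 numbered 14, and 50 of the 100 most variable genes were shared with those chosen from all libraries. Without replicates 2, 3 and 4 in turn the count was 102, 113 and 125, and without replicate 1 it was 80. Without both replicates 3 and 5 it was 15, with 28 of the 100 shared.

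The same genes were examined in the mutant libraries, which took no part in choosing them. Their median SD was 0.517 in the wild type, where it had chosen them, 0.211 in sma-3 mutants and 0.245 in sma-6 mutants, while the medians over all 8214 genes were 0.114, 0.121 and 0.112. The most variable 10% of genes in sma-3 mutants held 40 of the 100, and that in sma-6 mutants held 51. When the 100 genes were chosen without replicate 5, these numbers were 64 and 69. Of the 47 genes with replicate 5 highest and replicate 3 second, 6 were in the most variable 10% in sma-3 mutants and 11 in sma-6 mutants. Among the first 25 genes, vit-2, vit-6, F17B5.1, C53A3.2, F18E3.11, F55H12.2 and F44E7.2 had SDs over 0.5 in the wild type and in both mutants. Several of them lay under the ranking limit of 10 CPM there, where low counts can widen an SD. The means of vit-2 and vit-6 were 1.74 to 2.32 CPM in the mutants. F17B5.1 averaged 5.80 CPM in sma-3 and 4.33 CPM in sma-6 mutants, and F44E7.2 averaged 9.57 CPM in sma-3 mutants. The gene wrt-4 had an SD of 0.618 in the wild type, 0.108 in sma-3 mutants and 0.160 in sma-6 mutants.

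At the other end, the 5 steadiest genes of at least 100 CPM were Y75B8A.24, the cadherin hmr-1, the mitochondrial fission dynamin drp-1, the Ras gene let-60 and the dipeptidyl peptidase gene dpf-5. Their SDs lay between 0.0101 and 0.0156. The level of hmr-1 was 231, 239, 238, 233 and 245 CPM in replicates 1 to 5, and that of let-60 was 114, 119.5, 116.5, 113 and 121 CPM. Their SDs of 0.0109 and 0.0152 lay below the SDs from counting alone, 0.0207 and 0.0295.

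The counts were spread over the genome in stable shares. Chromosome I held 20.5% ± 0.230 of the counts, III held 19.3% ± 0.178, IV held 16.8% ± 0.151, V held 15.2% ± 0.0863, II held 14.7% ± 0.290 and X held 12.97% ± 0.136 (SD, n = 5). Chromosome V had the most listed genes, 3622, and the smallest share of them detected, 67.8%, against 75.1% to 84.0% on the other nuclear chromosomes. The 12 listed mitochondrial genes held 0.363% ± 0.0318. Libraries were selected for poly-A tails, so this share is not that of total RNA.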

How the data were processed

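Gene-level counts of 5 wild-type L2 libraries were analysed, with 5 sma-3 and 5 sma-6 libraries for the variation of the same genes. The authors deposited whole-number counts for 16259 genes and matching CPM. The deposited CPM equalled each count divided by the library total over listed genes within 0.0005 and was used only for that check. The deposited log2 fold changes and p-values of sma-3 mutants were not used. Per the submitters' processing notes, bcl2fastq, STAR 2.5.2b, featureCounts 1.5.2 and limma were used with the build WBcel235. Which strand setting or rule for shared reads was used is not given in the sources used here.

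Levels are CPM on library totals. Variation is the SD of log2 TMM-normalized CPM (edgeR 4.0.16, prior count 2, R 4.3.3) among genes of at least 10 CPM. TPM was computed from the counts and union exon length in Ensembl release 115 (build WBcel235), where identifiers were found for 16068 genes (98.8%). The table held 253 pseudogenes and 15 non-coding genes by that annotation. Only 1 genotype is described, so no test between groups was made. Ranking was tested on simulated counts.

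Members and lists were chosen with earlier results of these data known. Families were matched by symbol pattern, and the chemoreceptor pattern was narrowed after it had taken serpin genes. Of 358 list genes 340 were among the genes listed. Named genes were the 20 of highest mean CPM, the 2 highest members of the 12 largest families, the 3 highest and the lowest detected member of each list, the 25 of largest SD, the 5 of smallest SD at 100 CPM or more, and the 3 of largest SD in 4 lists. Other genes named were chosen after their values were seen. Alternatives were DESeq2 1.42.0 size factors, other scalings, thresholds and prior counts, thinning, and the omission of each library.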

Additional observations from a re-analysis of the deposited data

Results flagged for a closer look

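In each group of 5 libraries the value farthest from the others was compared with Dixon's 95% critical value for groups of 5, for 220 values. This flags about 1 in 20 groups by chance, and it picked out 29 values here. The outlying library was replicate 5 in 19 of them, replicate 3 in 8, and replicates 2 and 4 in 1 each. The values of 1 library are not independent of each other.

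Replicate 2 was sequenced to 48.29 M counts (M, 1000000), with 16.47 M to 19.81 M in the other libraries. In replicate 4 the Hsp90 gene daf-21 stood at 3098 CPM, with 2749 to 2842 CPM elsewhere.

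Replicate 3 was high for yolk and adult genes. Vitellogenins summed to 226 CPM there, with 5.57 to 7.83 CPM in the other libraries, and the adult list to 229.5 CPM, with 5.82 to 8.54 CPM. Single genes of these lists were vit-2 at 68.9 CPM, vit-6 at 77.4 CPM, vit-5 at 41.8 CPM and vit-3 at 7.92 CPM. In the same library the oocyte and eggshell list reached 108.5 CPM, with 55.8 to 71.0 CPM elsewhere, and the C-type lectins 3438 CPM, with 3017 to 3095 CPM elsewhere.

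Replicate 5 was low for several groups. The nuclear respiratory chain genes summed to 17780 CPM there, with 18925 to 19125 CPM in the other libraries, and the pharynx list to 2152 CPM, with 2600 to 2772 CPM. The genes cysl-2 (40.1 CPM), Y38E10A.14 (9.54 CPM), gst-24 (11.96 CPM) and grd-10 (39.9 CPM) were low there too.

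In other groups replicate 5 was high. The pan-neuronal list stood at 2305 CPM, with 2093 to 2148 CPM in the other libraries. After TMM normalization the pan-neuronal sum in replicate 5 was only 1.04-fold the mean of the others. Of its 20 genes 8 were then highest there, against 30.7% of all genes. The heat and proteotoxic stress list stood at 336 CPM, with 253 to 265 CPM elsewhere. That sum was nearly all hsp-4 (325 CPM), the only 1 of its genes to reach 10 CPM. The collagens col-17 (2637 CPM), dpy-13 (2286 CPM) and dpy-10 (464 CPM) were high, as were ftn-1 (26.9 CPM), C50D2.1 (135 CPM), rpn-2 (309.8 CPM), hsp-4 (325 CPM), rnr-1 (184 CPM), lag-2 (10.2 CPM) and hlh-6 (3.42 CPM). The embryonic gene med-2 had 0.177 CPM there, which is 3 counts, and none in the other libraries.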

How the results depend on the processing

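Mean levels moved little with the scaling of the counts. The shares of the leading genes and the sums of the 12 named families and 18 tissue lists stayed within 1 SD under other scalings. Those scalings keep the average over libraries nearly fixed (TMM factors 0.978 to 1.033), so these means could hardly move. The order of libraries did depend on scaling: replicate 5 was highest for 12 of 21 epidermal genes by CPM and for 9 after TMM normalization. The number of detected genes stayed within 1.5 times under every alternative run. A mean cannot move by 1 SD of the 5 libraries when 1 of them is left out. Those runs therefore could not exceed this limit for the shares and sums. The adult sum, at 51.6 CPM, fell to 7.08 CPM without replicate 3, and the vitellogenin sum rested on that library too. The order of 9 of the 12 families changed with TPM. The ranking by variation depended on the threshold and on single libraries. Genes with an SD of at least 1 numbered 31 at a mean of at least 1 CPM, 222 without a threshold and 0 at 50 CPM, and leaving out each library gave 1 to 4, with 1 when replicate 3 or replicates 3 and 5 were left out. Genes with an SD of at least 0.5 numbered 433, 2743 and 18 under the same thresholds, 14 to 125 with each library left out and 15 without replicates 3 and 5. Of the 100 most variable genes, 7 were shared at 1 CPM, 2 without a threshold and 36 at 50 CPM. With each library left out 50 to 87 were shared, and 28 without replicates 3 and 5. Other scalings, prior counts, thinning and measures of spread shared 72 to 100. Replicate 5 was farthest for 80 to 90 of the 100 genes with each other library left out. Of the 100 genes, 32 to 64 were in the most variable 10% of genes of sma-3 mutants and 41 to 69 in that of sma-6 mutants with each library left out. The omission of replicates 3 and 5 together was chosen after seeing the data. The cause of these changes was not tested, beyond the low counts that a lower threshold admits and the smaller number of libraries. No paired analysis was possible because a single genotype is described and no result comes from a test between groups. At the lowest depth, levels under 0.182 CPM rest on fewer than 3 counts.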
